A study of Mus musculus with 27 samples.

Results

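The 10 genes described here, H2-K1, H2-D1, H2-T23, H2-Q4, B2m, Tap1, Tap2, Tapbp, Psmb8 and Psmb9, make and load the class I molecules of the major histocompatibility complex (MHC), which the mouse calls the H2 complex. They were chosen by symbol, with no measured value in the rule, and all 10 were found among the 55416 genes of the read-count table. RNA of whole fetal brain was sequenced at d12, d15 and d17 of gestation (d, day) from C57BL/6J fetuses, AKR/J fetuses and Cav1-null fetuses (strain B6.Cg-Cav1tm1Mls/J, with a null allele of Cav1, the gene of caveolin-1). Every group of strain and day had 3 libraries, 27 in all, each labelled as the brain of a female fetus, with no treatment named, from dams of about 8 weeks put to timed pregnancy. The labels do not say which fetuses shared a litter, so p-values measure the spread between these libraries. Plug day counted as day 1, and the Cav1 allele is a germline one, not limited to a cell type.

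Class I molecules carry short peptides from inside the cell to its surface, where T cells and natural killer cells read them. Immunoproteasome subunits such as Psmb8 and Psmb9 cut proteins into peptides, the Tap1 and Tap2 transporter moves the peptides into the endoplasmic reticulum, Tapbp (tapasin) helps to load them, and B2m (beta-2 microglobulin) is the light chain that holds the heavy chain in shape. H2-K1 and H2-D1 encode the classical heavy chains, which present peptides to T cells, and H2-T23 (Qa-1) and H2-Q4 (Qb-1) belong to the nonclassical ones. In the brain these genes are known for low levels in neurons, for higher levels in endothelium and microglia, and for a strong response to interferons. AKR/J mice carry the H2 haplotype k and C57BL/6J mice the haplotype b, and the heavy chains differ in sequence between the haplotypes.

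All the members but B2m lie on mouse chromosome 17 in the H2 complex. On GRCm39, from one end to the other, they are Tapbp at chr17:34134873-34148267, H2-K1 at chr17:34214987-34219321 on the minus strand, Psmb9 at chr17:34400960-34406738, Tap1 at chr17:34405996-34416199, Psmb8 at chr17:34416690-34420428, Tap2 at chr17:34422501-34435829, H2-D1 at chr17:35481691-35486475, H2-Q4 at chr17:35598586-35604274 and H2-T23 at chr17:36340229-36345571. B2m is at chr2:121977957-121983594. Psmb9 and Tap1 run in opposite directions and overlap by 743 bases at their starts, and reads there cannot be told apart unless strand was used in counting. The heavy chains share long stretches of sequence: in the reference, exon 4 of H2-K1 is 96.0% identical to that of H2-D1, 95.3% to that of H2-T23 and 92.8% to that of H2-Q4, while exon 2 of H2-K1 and H2-D1, which codes for part of the peptide groove, is 91.1% identical. How the authors' counting treated reads with several matches is not given in the sources used here, and the reference comes from C57BL/6J, so heavy-chain counts, those of AKR/J above all, are uncertain.

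The first 90 bases of exon 2 are shown because reads across this exon turned out to differ by strain. The sequences are from GRCm39, 5′ to 3′ in the direction of the gene, at chr17:34218888-34218977 for H2-K1, chr17:34197408-34197497 for the neighbouring pseudogene H2-K2 and chr17:35482355-35482444 for H2-D1. Capitals mark the bases that differ from H2-K1.
H2-K1: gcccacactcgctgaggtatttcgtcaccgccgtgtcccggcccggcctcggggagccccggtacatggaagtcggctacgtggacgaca
H2-K2: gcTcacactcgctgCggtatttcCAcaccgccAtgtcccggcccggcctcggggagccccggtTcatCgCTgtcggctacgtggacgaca
H2-D1: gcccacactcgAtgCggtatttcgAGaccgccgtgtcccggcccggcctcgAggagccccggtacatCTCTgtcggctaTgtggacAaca
Over these 90 bases H2-K2 differed from H2-K1 at 9 and H2-D1 differed from H2-K1 at 11.

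The depth was 26363697 to 39759702 reads on genes per library, and the CPM values below (reads relative to library size) were scaled by TMM factors of 0.679 to 1.12, except those of Cav1, Ddx3y, Xist and Gm10503, which are by library size alone. Cav1 was at 0 to 0.551 CPM in the Cav1-null libraries and at 6.36 to 43.0 CPM in the others, as labelled. Sex-linked genes went against the label in a few libraries: Cav1-null d12 replicate 2 had 104 CPM of the Y-linked Ddx3y and 3.67 CPM of Xist, AKR/J d12 replicate 1 had 12.0 CPM of Ddx3y, and AKR/J d15 replicate 3 had 3.42 CPM of Xist with no Ddx3y read. Markers of other tissues moved with AKR/J on d12: the summed level of the erythroid markers was 33219 to 197870 CPM there and 1941 to 5347 CPM in the other d12 groups, that of the 10 leukocyte markers was 22.3 to 65.6 CPM with a median of 49.2 CPM against medians of 8.08 CPM in C57BL/6J and 8.78 CPM in Cav1-null, with 1 marker at 0 against 2 in each other group, and that of the neuronal markers was 2042 to 2534 CPM against 3715 to 6187 CPM. In RNA of whole brain, fewer cells of a type and less RNA per cell cannot be told apart.

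C57BL/6J libraries differed among themselves at the H2 complex itself. From 107 genes that were higher in all AKR/J than in all Cav1-null libraries by at least 1.5 on the log2(CPM + 0.1) scale, 6 lay on chromosome 17 between 29193607 and 42794472 (the H2 genes and 5 Mb on either side) and were no heavy chain or member. On a scale where 0 is the Cav1-null level and 1 the AKR/J level, the median of these 6 genes stood at 1.12 in C57BL/6J d12 replicate 1 and between 0.339 and 0.474 in d12 replicate 2, d15 replicates 1 and 2 and d17 replicates 1 and 3, and it stood at 0 or -0.001 in the other 3 libraries. One of them, Gm10503, named here after its values were seen, was at 3.80 to 15.5 CPM in AKR/J, at 12.8, 7.17 and 0 CPM in C57BL/6J on d12, at 7.42, 8.23 and 0 CPM on d15 and at 10.2, 0 and 8.78 CPM on d17. So 6 of the 9 C57BL/6J libraries lay over 0.25, a cut set after seeing the values, 1 of them at the AKR/J level and 5 in between the strains, and 1 library of each day lay at the Cav1-null level. Of all 107 genes, most of them elsewhere in the genome, 30 to 56 were nearer to the AKR/J level in each C57BL/6J library. Calls against C57BL/6J are therefore given also from 1 model of the 21 libraries without those 6, which leaves 1 C57BL/6J library a day whose spread is assumed to be like that of the other groups.

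Per kilobase of transcript, B2m was the most abundant member, with a median of 19.7 CPM per kb over the 9 groups and the highest level in each of them. H2-D1 followed at 6.37, Tapbp at 4.39, H2-T23 at 3.10, H2-K1 at 2.99, H2-Q4 at 0.964, Tap1 at 0.730, Psmb9 at 0.290, Psmb8 at 0.231 and Tap2 at 0.0845 CPM per kb. These medians pool strains that differed, and H2-D1 held the second place in 5 of the 9 groups. In AKR/J its level was 2.40 CPM per kb on d12, 1.26 on d15 and 0.897 on d17, below Tapbp, H2-T23 and H2-K1 on each day and below Tap1 (1.05 CPM per kb) on d17. In C57BL/6J on d12 it was at 5.15 CPM per kb, below Tapbp at 6.17 and H2-K1 at 5.88. H2-Q4 was also below Tap1 on d17 in AKR/J and in C57BL/6J, and Tap2, Psmb8 and Psmb9 rested on few reads, with 1 to 50 reads in any library.

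**Figure D1:**
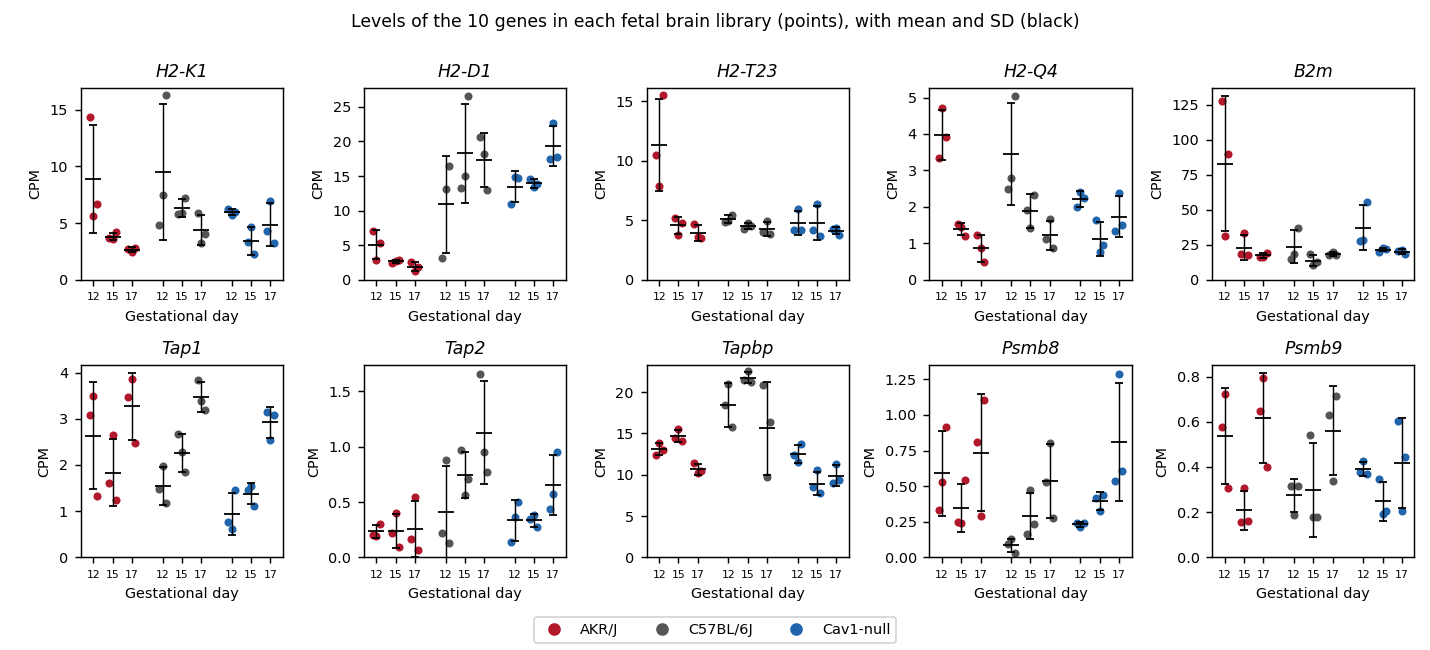
Level of each of the 10 members in CPM (linear axes from 0, a panel per gene) by strain and gestational day; points are libraries, and black lines are the mean and SD of 3. H2-D1 lies lowest in AKR/J on d15 and d17, and B2m and H2-T23 reach their highest values in AKR/J on d12.

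H2-D1, a classical heavy chain, was the member with the largest differences of AKR/J from the other strains on d15 and d17. In AKR/J it was at 7.01, 2.93 and 5.33 CPM on d12, 2.39, 2.75 and 2.84 CPM on d15 and 2.53, 1.30 and 1.87 CPM on d17. In Cav1-null it was at 10.9, 14.8 and 14.7 CPM on d12, 14.6, 13.4 and 13.9 CPM on d15 and 17.5, 22.7 and 17.7 CPM on d17. In C57BL/6J it was at 3.09, 13.1 and 16.5 CPM on d12, 13.3, 15.0 and 26.5 CPM on d15 and 20.6, 18.2 and 13.0 CPM on d17. Every AKR/J library lay under every library of the other strains on the same day but for C57BL/6J d12 replicate 1, which was also the library with the highest value at the interval. The order of the group means put the 3 AKR/J groups at the bottom, and the 6 groups above them, from 10.9 to 19.3 CPM, mostly overlapped with their neighbours.

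Against Cav1-null, H2-D1 in AKR/J was 2.57-fold lower on d12 (log2 difference -1.36 ± 0.34 SE, adjusted p = 0.0265), 5.29-fold lower on d15 (-2.40 ± 0.16, adjusted p = 4.7e-05) and 10.1-fold lower on d17 (-3.34 ± 0.21, adjusted p = 4.93e-07) by edgeR's quasi-likelihood F test, Benjamini-Hochberg adjusted over all genes. Neither strain here is touched by the doubt on C57BL/6J. The d12 call was lost without AKR/J d12 replicate 3 (-1.40) or without Cav1-null d12 replicate 1 (-1.51), 2 (-1.30) or 3 (-1.30), and replicate 2 of Cav1-null is the library at odds with its sex label. The calls on d15 and d17 were kept under all 14 alternatives.

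Against C57BL/6J, H2-D1 in AKR/J was 6.54-fold lower on d15 (-2.71 ± 0.29, adjusted p = 0.000455) and 9.11-fold lower on d17 (-3.19 ± 0.29, adjusted p = 0.00218) by the same test. On d12 the difference was -0.95 ± 0.57 and did not pass (adjusted p = 0.233). In the model of 21 libraries it was -1.73 on d12 (adjusted p = 0.00281), -3.33 on d15 (adjusted p = 6.53e-06) and -3.25 on d17 (adjusted p = 1.29e-05, edgeR with Benjamini-Hochberg adjustment), so the d12 difference became DE there.

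Reads that span H2-D1 splice junctions give a separate view, since the authors removed junctions with multi-mapped reads. The junction of exons 7 and 8 (intron at chr17:35485703-35485841) had 0 to 4 reads in the AKR/J libraries, with a median of 2, and 19 to 37 in the Cav1-null libraries, with a median of 28. In C57BL/6J it had 0 to 74 reads with a median of 29, and the 0 was d12 replicate 1. The junction of exons 5 and 6 (chr17:35485280-35485457) had 0 to 18 reads in AKR/J and 23 to 47 in Cav1-null. AKR/J and Cav1-null did not overlap at either of these junctions. At the third H2-D1 junction, not listed here, libraries of these strains did overlap. Over all 3 junctions together AKR/J had 0 to 27 reads and Cav1-null 46 to 91. C57BL/6J had 9 to 145 over all 3, and the 9 was d12 replicate 1. No test was run on single junctions, and a 0 can stand for reads that were removed.

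H2-K1, the other classical heavy chain, differed less in its count but differed in its junctions. It was at 14.4, 5.66 and 6.71 CPM on d12, 3.64, 3.61 and 4.19 CPM on d15 and 2.69, 2.46 and 2.84 CPM on d17 in AKR/J. In C57BL/6J it was at 4.83, 7.47 and 16.3 CPM on d12, 5.83, 5.90 and 7.22 CPM on d15 and 5.90, 3.27 and 4.03 CPM on d17. In Cav1-null it was at 6.23, 5.72 and 6.01 CPM on d12, 3.31, 4.68 and 2.27 CPM on d15 and 4.31, 6.95 and 3.28 CPM on d17. On d15 the C57BL/6J libraries lay above all others, and on d12 no pair of strains was apart.

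On d15 H2-K1 was 1.58-fold lower in AKR/J (-0.66 ± 0.17, adjusted p = 0.0182) and 1.79-fold lower in Cav1-null (-0.84 ± 0.25, adjusted p = 0.0143) than in C57BL/6J (edgeR's quasi-likelihood test, Benjamini-Hochberg). With the 6 C57BL/6J libraries left out these were -0.93 (adjusted p = 0.216) and -1.09 (adjusted p = 0.107), no longer DE by edgeR, with 1 C57BL/6J library that day. In the model of all 27 libraries both calls were lost as well (-0.73, adjusted p = 0.174, and -0.88, adjusted p = 0.0760, by edgeR). The AKR/J call was also lost without AKR/J d15 replicate 1 (-0.64) or C57BL/6J d15 replicate 3 (-0.57).

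Exon 8 of H2-K1, which encodes the end of the cytoplasmic tail, was entered at either of 2 acceptors 27 bases apart. The bases around them, at chr17:34215449-34215517 on GRCm39 and read along the minus strand, are shown because the strains used them unequally. Capitals mark the bases between the acceptors, which are part of exon 8 only when the outer acceptor is used, and both the lower-case intron before them and the capitals end in ag, the last bases of introns.
H2-K1 exon 8 start: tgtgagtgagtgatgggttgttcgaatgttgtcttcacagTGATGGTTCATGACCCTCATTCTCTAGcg
Reads to the outer acceptor (intron at chr17:34215478-34215589) numbered 28 over the 9 AKR/J libraries, 89 over those of C57BL/6J and 82 over those of Cav1-null. Reads to the inner acceptor (chr17:34215451-34215589) numbered 115 over the AKR/J libraries, 2 over those of Cav1-null and 94 over those of C57BL/6J. In the C57BL/6J libraries the inner acceptor had 37, 22 and 3 reads on d12, 24, 0 and 0 on d15 and 0, 0 and 8 on d17. In AKR/J d12 replicate 1, unlike the other AKR/J libraries, 11 reads went to the outer acceptor and 0 to the inner one. The inner acceptor was the more used over all AKR/J libraries, was nearly unread in Cav1-null and varied from library to library in C57BL/6J.

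The 5′ end of H2-K1 differed too. The junction of exons 1 and 2 (chr17:34218978-34219167) had 0 to 7 reads in the AKR/J libraries (median 2) and 6 to 35 in the Cav1-null libraries (median 15). Reads that joined exon 1 of H2-K1 to exon 2 of the pseudogene H2-K2 (chr17:34197498-34219167) were seen in 8 of the 9 AKR/J libraries, 42 reads in all, in none of the 9 Cav1-null libraries, and in 5 of the 9 C57BL/6J libraries, 24 reads in all. Among the C57BL/6J libraries they numbered 8, 5 and 0 on d12, 8, 2 and 0 on d15 and 0, 0 and 1 on d17, so that the 3 libraries at the Cav1-null level of the interval had 0. The gene count of H2-K2 itself lay between 0.136 and 0.735 CPM in Cav1-null and did not pass 0.152 CPM in AKR/J. These reads were placed on the reference of C57BL/6J, in which exon 2 of H2-K2 is 88.6% identical to that of H2-K1; what the AKR/J chromosome holds there was not tested. H2-K2 and these junctions were picked after their values were seen.

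**Figure D2:**
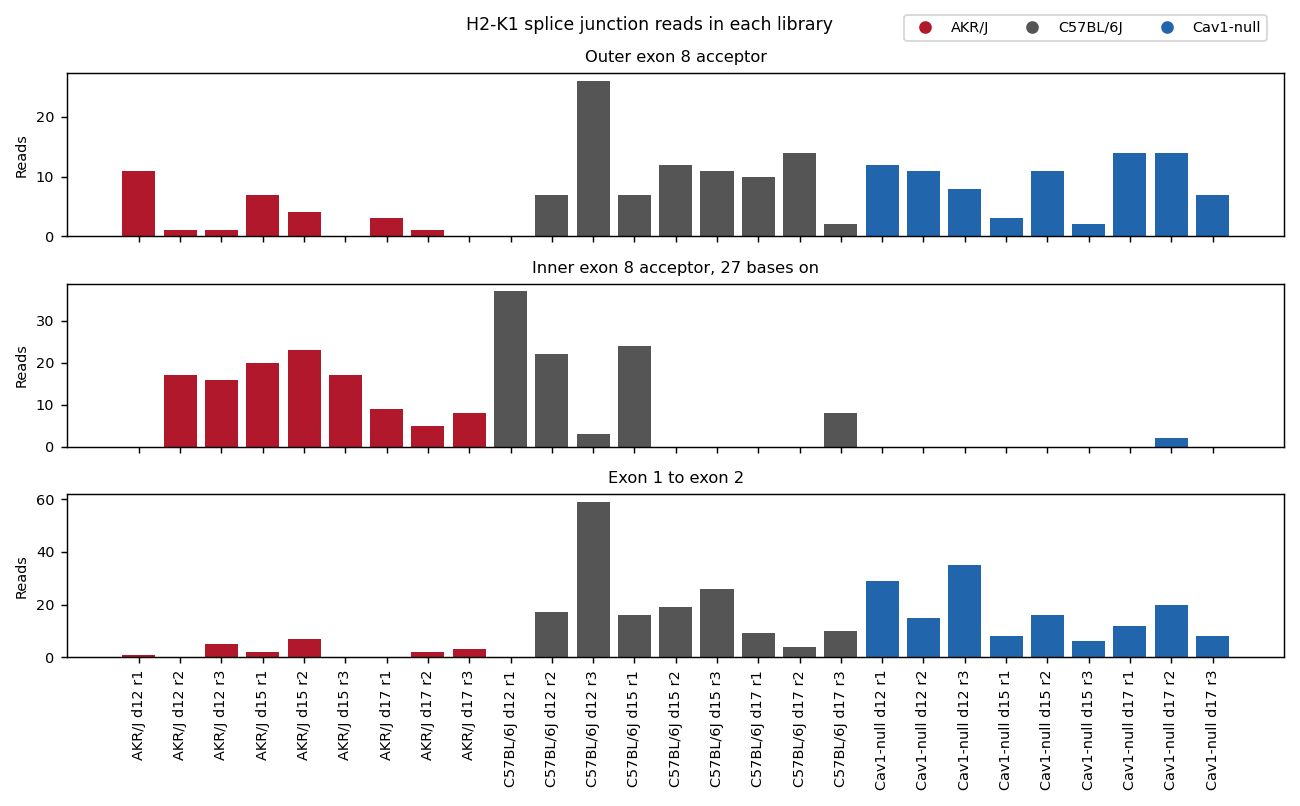
Reads per library (bars, linear axes) to the outer and to the inner acceptor of H2-K1 exon 8 and across the junction of exons 1 and 2, coloured by strain. Reads to the inner acceptor lie in 8 of 9 AKR/J libraries and 5 of 9 C57BL/6J libraries, with 2 reads in all Cav1-null libraries together.

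H2-T23, the Qa-1 heavy chain that natural killer cells read through an inhibitory receptor, stood out in AKR/J on d12. It was at 10.5, 7.90 and 15.5 CPM there, at 4.89, 4.92 and 5.46 CPM in C57BL/6J and at 4.17, 5.97 and 4.21 CPM in Cav1-null. The AKR/J libraries lay above all others. It was 2.44-fold higher than in C57BL/6J (1.29 ± 0.31, adjusted p = 0.0203) and 2.44-fold higher than in Cav1-null (1.29 ± 0.32, adjusted p = 0.0258) by edgeR's quasi-likelihood F test, Benjamini-Hochberg adjusted, and it fell by 1.35 ± 0.31 on the log2 scale to d15 in AKR/J (adjusted p = 0.0151). On d15 and d17 its group means were 3.93 to 4.76 CPM in all strains, and no strain difference was called.

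B2m, the light chain, was also higher in AKR/J than in C57BL/6J on d12, with a wider spread. On d12 it was at 127, 31.5 and 89.7 CPM in AKR/J, at 15.1, 18.7 and 37.1 CPM in C57BL/6J and at 27.4, 28.6 and 55.6 CPM in Cav1-null, so that AKR/J overlapped with both other strains. It was 3.84-fold higher in AKR/J than in C57BL/6J (1.94 ± 0.51, adjusted p = 0.0254, edgeR's quasi-likelihood F test, Benjamini-Hochberg adjusted). Against Cav1-null the log2 difference was 1.20 ± 0.48, which did not pass the threshold (adjusted p = 0.112 by edgeR). In AKR/J it fell by 1.89 ± 0.48 to d15 (adjusted p = 0.0205), where it was at 18.3, 33.2 and 17.5 CPM, and on d17 it was at 16.4, 16.5 and 19.4 CPM. On d15 it was 1.61-fold higher in Cav1-null (20.1, 22.3 and 21.8 CPM) than in C57BL/6J (18.2, 10.2 and 12.5 CPM), with an adjusted p of 0.0097 by edgeR, and libraries did not overlap. That call was lost in the models of 27 libraries (0.65, adjusted p = 0.189) and of 21 libraries (0.76, adjusted p = 0.381 by edgeR).

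Of the 8 members tested between AKR/J and C57BL/6J on d12, then, 2 were called, both higher in AKR/J, where 28.6% of all genes tested were called and 14.5% were called higher. Between AKR/J and Cav1-null on d12 2 of 8 were called, H2-T23 higher and H2-D1 lower, against 19.6% of all genes. Both d12 differences from C57BL/6J were lost in the model of 21 libraries (H2-T23 1.02, adjusted p = 0.0795, and B2m 1.13, adjusted p = 0.152, by edgeR) and without AKR/J d12 replicate 1 (1.33 and 1.48) or 3 (0.98 and 1.87) or C57BL/6J d12 replicate 1 (1.25 and 1.69) or 2 (1.22 and 1.76). AKR/J replicates 1 and 3 also had the most erythroid RNA, at 101712 and 197870 CPM against 33219 CPM in replicate 2. Scaled by library sizes alone in place of TMM, H2-T23 was 0.81 above C57BL/6J and Cav1-null alike and was not DE. The part of the erythroid and leukocyte markers in these results was not tested. Against Cav1-null, the H2-T23 call was lost without any one of the AKR/J replicates 1 (1.33) and 3 (0.99) or the Cav1-null replicates 1 (1.18), 2 (1.47) and 3 (1.20).

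In the early phase, from d12 to d15, 4 of 9 members tested were lower in AKR/J, against 28.9% of all genes called and 14% called lower. The classical H2-K1 fell by 1.27 ± 0.39 (adjusted p = 0.0401) and H2-Q4 fell by 1.56 ± 0.33 (adjusted p = 0.0112, edgeR's quasi-likelihood F test, Benjamini-Hochberg adjusted), beside H2-T23 and B2m. H2-Q4 went from 3.34, 4.71 and 3.91 CPM to 1.54, 1.44 and 1.21 CPM, and its libraries did not overlap. The fall of H2-K1 was -0.74 and not DE without AKR/J d12 replicate 1, and its call also went without AKR/J d12 replicate 3 (-1.43) or AKR/J d15 replicate 1 (-1.23) or 2 (-1.21). Without AKR/J d15 replicate 3, the library with little Xist, all 4 calls were lost (H2-K1 -1.32, H2-T23 -1.36, H2-Q4 -1.45 and B2m -1.72). Without AKR/J d15 replicate 1 the calls of H2-Q4 (-1.63) and B2m (-1.74) went, without d12 replicate 3 those of H2-T23 (-1.05) and B2m (-1.83), and without d12 replicate 1 that of B2m (-1.44). Scaled by library sizes alone, none of the 4 was DE (H2-K1 -0.74, H2-Q4 -1.15, H2-T23 -0.84 and B2m -1.29).

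No member was DE over the early phase in the other strains. In C57BL/6J 0 of 9 were called (14.9% of all genes) and in Cav1-null 0 of 9 (23.4%) by edgeR's quasi-likelihood test; 1 and 4 members had an unadjusted p under 0.05, and DESeq2 called 0 and 3. H2-Q4 went from 2.22 ± 0.211 CPM (SD, n = 3) to 1.12 ± 0.457 CPM in Cav1-null and from 2.49, 2.81 and 5.05 CPM to 1.92, 1.42 and 2.33 CPM in C57BL/6J. Its d12 and d15 libraries did not overlap in any of the strains. When the change itself was compared between strains by an interaction term, none of 10 members differed from C57BL/6J in AKR/J (0.0711% of all genes called) or in Cav1-null (0.00472%); 3 and 1 members had an unadjusted p under 0.05, and DESeq2 called 1 in each. The lowest unadjusted p was that of Tapbp in Cav1-null (difference of changes -0.72, adjusted p = 0.211 by edgeR).

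Tapbp, the loading factor tapasin, separated C57BL/6J from the other strains on d15. It was at 21.5, 22.5 and 21.3 CPM in C57BL/6J, at 14.4, 15.5 and 14.1 CPM in AKR/J and at 8.47, 10.5 and 7.76 CPM in Cav1-null. The 3 strains did not overlap. It was 2.37-fold lower in Cav1-null than in C57BL/6J (-1.24 ± 0.13, adjusted p = 1.4e-05) and 1.41-fold lower in AKR/J than in C57BL/6J (-0.50 ± 0.10, adjusted p = 0.00634), and 1.63-fold higher in AKR/J than in Cav1-null (0.70 ± 0.15, adjusted p = 0.0154) by edgeR's quasi-likelihood F test, Benjamini-Hochberg adjusted. The difference of Cav1-null from C57BL/6J was kept in all 14 alternatives and was -1.26 in the model of 21 libraries (adjusted p = 0.00022 by edgeR). That of AKR/J from C57BL/6J was -0.55 there (adjusted p = 0.0987 by edgeR), and that of AKR/J from Cav1-null was lost without Cav1-null d15 replicate 1 (0.68) or 3 (0.62). Noncoding genes lie within the span of Tapbp, and whether their reads were kept apart by strand is not given in the sources used here.

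On d12 Tapbp was at 18.4, 21.0 and 15.7 CPM in C57BL/6J against 12.4, 13.8 and 13.0 CPM in AKR/J and 12.4, 11.5 and 13.7 CPM in Cav1-null, and no difference was called. On d17 C57BL/6J had 20.8, 9.68 and 16.3 CPM, AKR/J 11.4, 10.2 and 10.4 CPM and Cav1-null 8.96, 11.3 and 9.38 CPM. C57BL/6J d17 replicate 2, a library at the Cav1-null level of the interval, lay with the other strains. The other libraries at that level, d12 replicate 3 (15.7 CPM) and d15 replicate 3 (21.3 CPM), lay above AKR/J and Cav1-null of their day. From d15 to d17 Tapbp fell by 0.44 ± 0.13 in AKR/J (adjusted p = 0.0389, edgeR's quasi-likelihood F test, Benjamini-Hochberg adjusted), the only one of 9 members called there, against 22.1% of all genes. That call was lost in 10 of 14 alternatives, among them those without AKR/J d15 replicate 1 (-0.46), 2 (-0.39) or 3 (-0.48) or AKR/J d17 replicate 2 (-0.41) or 3 (-0.44).

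With Tapbp, H2-K1 and H2-D1 the members called between AKR/J and C57BL/6J on d15 came to 3 of 8, all lower in AKR/J, where 41.1% of all genes were called and 22.3% were lower. Between Cav1-null and C57BL/6J on d15, 5 of 9 were called, B2m higher and Tapbp, H2-K1, Tap1 and Tap2 lower, against 58.6% of all genes. Between AKR/J and Cav1-null on d15, 2 of 9 were called against 19.3% of all genes. On d17 H2-D1 was the 1 member of 10 called between AKR/J and C57BL/6J (0.742% of all genes) and between AKR/J and Cav1-null (12.4%), and 0 of 10 were called between Cav1-null and C57BL/6J (0.0491%; 1 member at an unadjusted p under 0.05, 0 by DESeq2). On d12 0 of 9 were called between Cav1-null and C57BL/6J, and so were 0% of 19475 genes (1 member and 4309 genes at an unadjusted p under 0.05, 1 member by DESeq2).

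**Figure D3:**
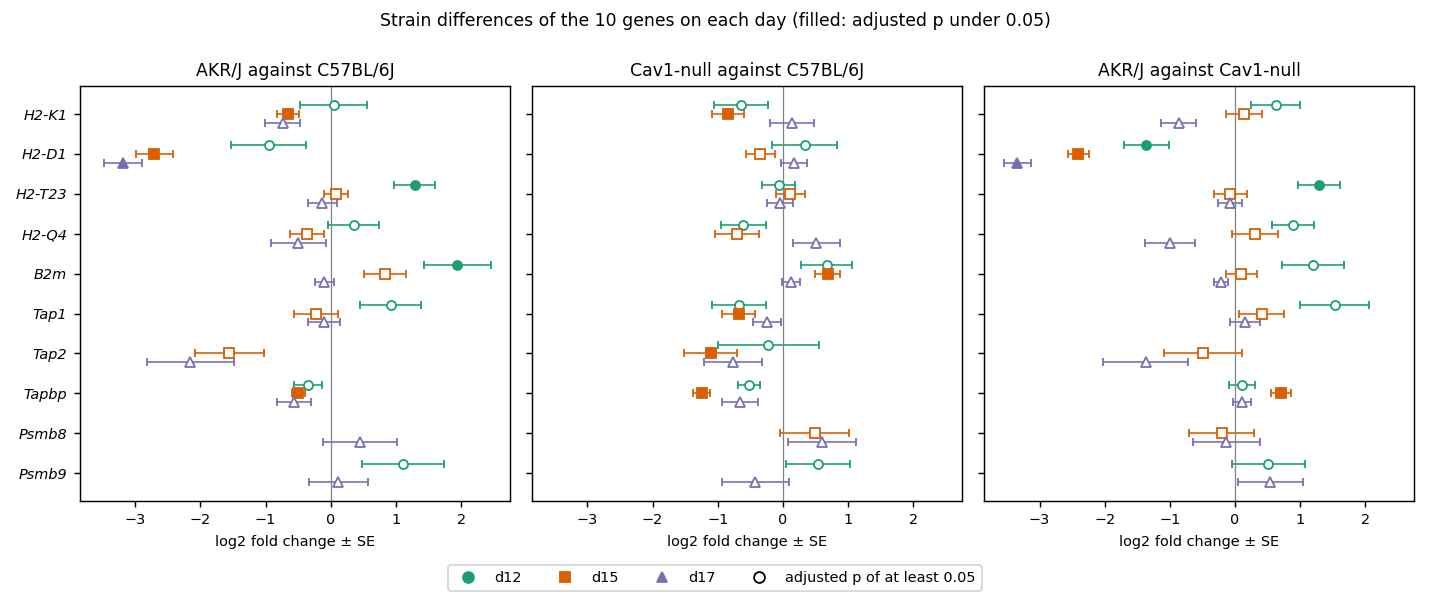
Log2 fold difference of each tested member on each day, in a panel per pair of strains, with bars of 1 SE and filled symbols where the adjusted p of edgeR was under 0.05. H2-D1 lies farthest to the left where AKR/J is compared on d15 and d17.

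The peptide transporter was read at low counts. Tap1 was at 3.09, 3.49 and 1.32 CPM on d12, 1.60, 2.66 and 1.25 CPM on d15 and 3.47, 3.87 and 2.47 CPM on d17 in AKR/J. In C57BL/6J it was at 1.48, 1.99 and 1.17, then 2.67, 2.27 and 1.86, then 3.84, 3.39 and 3.19 CPM. In Cav1-null it was at 0.758, 0.612 and 1.46, then 1.46, 1.55 and 1.12, then 3.14, 2.54 and 3.09 CPM. The d17 libraries lay above the d15 libraries in C57BL/6J and in Cav1-null, while 1 library of each day crossed over in AKR/J.

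On d15 Tap1 was 1.60-fold lower in Cav1-null than in C57BL/6J (-0.68 ± 0.25, adjusted p = 0.0411) and Tap2, its partner, was 2.16-fold lower (-1.11 ± 0.41, adjusted p = 0.0387, edgeR's quasi-likelihood F test, Benjamini-Hochberg adjusted). Tap2 had 0.349, 0.387 and 0.271 CPM in Cav1-null, 0.972, 0.560 and 0.707 CPM in C57BL/6J and 0.220, 0.397 and 0.0959 CPM in AKR/J, from 3 to 36 reads a library. Both calls were lost by DESeq2 and in most alternatives, among them the model of 21 libraries (-0.44, adjusted p = 0.647, and -1.08, adjusted p = 0.456, by edgeR) and the removal of single libraries of either strain.

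In the late phase, from d15 to d17, a pair of members was higher on d17 in Cav1-null fetal brain. Tap1 rose 2.12-fold (1.09 ± 0.25, adjusted p = 0.00592) and H2-D1 rose 1.39-fold (0.47 ± 0.12, adjusted p = 0.00998) by edgeR's quasi-likelihood F test, Benjamini-Hochberg adjusted, and the libraries of the days did not overlap in either gene. So 2 of 10 members were called there, both higher, against 27.3% of all genes called and 14.5% called higher. Leaving out any one library kept both calls, while in the model of all 27 libraries they were lost (Tap1 1.08, adjusted p = 0.0960, and H2-D1 0.47, adjusted p = 0.593, by edgeR). In C57BL/6J 0 of 10 were called, against 13% of all genes (1 at an unadjusted p under 0.05, 0 by DESeq2). The change from d15 to d17 was not called as different from C57BL/6J for any of 10 members in AKR/J (0.00468% of all genes called) or in Cav1-null (0.252%); 1 and 2 members had an unadjusted p under 0.05, and DESeq2 called 0 in each.

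Psmb8 and Psmb9, the immunoproteasome subunits, had too few reads for firm statements. Psmb8 was at 0.0947, 0.126 and 0.0317 CPM in C57BL/6J on d12 (1 to 4 reads), at 0.330, 0.527 and 0.914 CPM in AKR/J and at 0.241, 0.214 and 0.238 CPM in Cav1-null. C57BL/6J lay under the other strains, but the gene did not pass the filter on low counts in the fit of AKR/J and C57BL/6J on d12. In the model of all 27 libraries it was higher in AKR/J by 2.74 on the log2 scale (adjusted p = 0.00157 by edgeR), and in that of 21 libraries by 4.01 (adjusted p = 0.0228). Psmb9 went from 0.157, 0.306 and 0.160 CPM on d15 to 0.648, 0.795 and 0.401 CPM on d17 in AKR/J, a log2 difference of 1.55 that just missed the threshold (adjusted p = 0.0578, edgeR with Benjamini-Hochberg adjustment).

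Tap1 and H2-D1 rose from d15 to d17 in Cav1-null, and so did many interferon-stimulated genes. Other members did not: B2m went from 20.1, 22.3 and 21.8 CPM to 20.9, 21.3 and 18.3 CPM. H2-T23 went from 4.18, 6.39 and 3.69 CPM to 4.25, 4.37 and 3.79 CPM. Whether interferon had a part was not tested. Of 24 interferon-stimulated genes tested from d15 to d17 in Cav1-null, 18 rose, against 14.5% of all genes called higher, with a median log2 change of 1.29 where that of all genes was -0.00; Ifi44, an interferon-induced gene of antiviral defence, rose by 2.73. In C57BL/6J 3 of 21 were called higher (median 0.49), against 7.46% of all genes called higher, and in AKR/J 1 of 19 was called higher and 1 lower (median 0.09), against 11.6% and 10.4% of all genes. The Cav1-null count was 13 to 18 in the other fits and 4 of 24 in the models of 27 and of 21 libraries. Of all genes, 829 of 23307 were called there in the model of 27 libraries, and 2.32% were called higher in that of 21, where Ifi44 had an adjusted p of 0.220 by edgeR. Between AKR/J and Cav1-null on d17, 11 of 22 were lower in AKR/J, against 6.67% of all genes called lower, and 6 were so without Cav1-null d17 replicate 2. That count was 3 of 24 in the model of 27 libraries, where 639 of 23307 genes were called in either direction, and 2 of 24 in that of 21, where 1.31% of all genes were called lower. Nlrc5, the transactivator of class I genes, had group means of 0.276 to 1.34 CPM and was not called in any comparison.

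**Figure D4:**
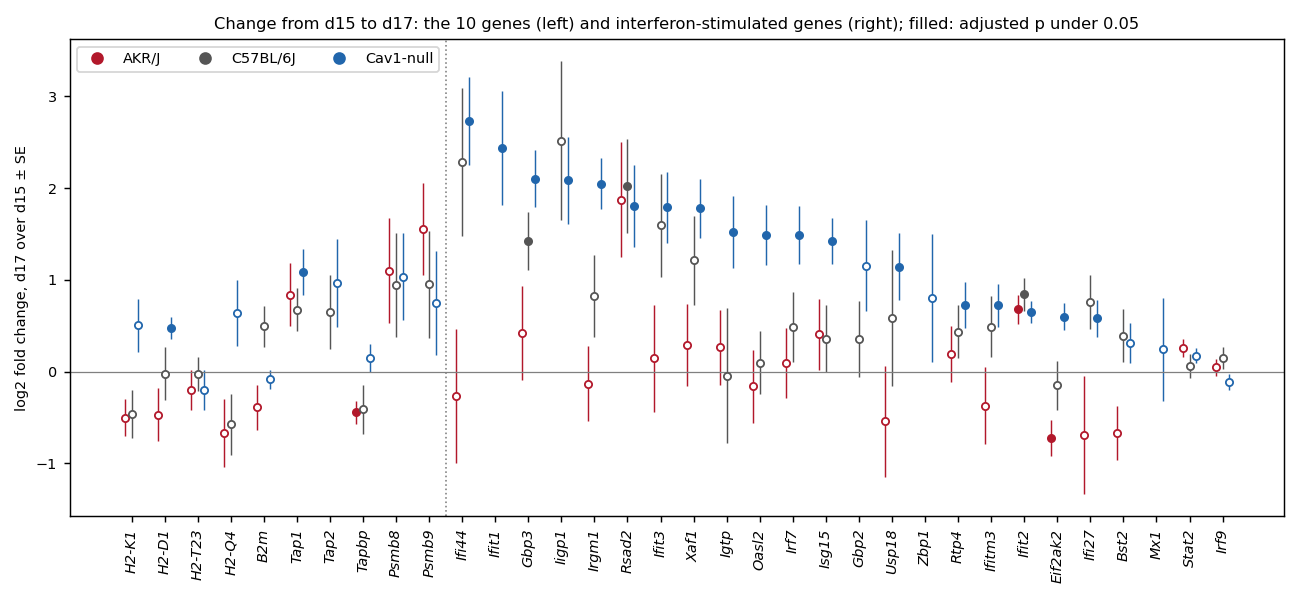
Log2 change from d15 to d17 with bars of 1 SE for the 10 members (left of the dotted line) and the interferon-stimulated genes (right), coloured by strain and filled where edgeR called them. In Cav1-null 18 of 24 interferon-stimulated genes and 2 of 10 members were called higher.

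Promoters are shown for H2-D1 and H2-K1, which differ in their strain pattern, and for B2m and H2-T23, which were high together in AKR/J on d12. The sequences are from RefSeq on GRCm38.p6, 150 bases in the direction of the gene that end 31 bases before the start, at chr17:35262914-35263063 (H2-D1), chr17:34000378-34000527 (H2-K1, minus strand, the first of 2 starts), chr2:122147507-122147656 (B2m) and chr17:36032732-36032881 (H2-T23, minus strand). Capitals mark matches to the kappa B letters (GGGG followed by ATTCCCC) or to the core of the interferon response element (GAAA, any 2 bases, GAAA), both searched on both strands and not overlapping here.
H2-D1: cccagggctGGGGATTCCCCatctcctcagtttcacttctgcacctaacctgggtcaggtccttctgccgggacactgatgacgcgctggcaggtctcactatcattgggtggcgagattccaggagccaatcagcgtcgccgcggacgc
H2-K1: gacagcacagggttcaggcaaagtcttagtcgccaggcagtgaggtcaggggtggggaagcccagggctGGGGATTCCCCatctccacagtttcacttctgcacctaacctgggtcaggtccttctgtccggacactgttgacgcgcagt
B2m: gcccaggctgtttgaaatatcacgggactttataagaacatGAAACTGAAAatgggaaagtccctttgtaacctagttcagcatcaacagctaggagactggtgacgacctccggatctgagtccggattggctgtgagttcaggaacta
H2-T23: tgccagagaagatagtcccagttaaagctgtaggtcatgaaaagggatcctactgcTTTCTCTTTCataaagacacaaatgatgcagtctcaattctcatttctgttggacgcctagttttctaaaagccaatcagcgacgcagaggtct
Of the 10 members 9 had a promoter in the table, and Tap2 had none. The kappa B letters were held by H2-D1 and H2-K1 and by 10 of 32851 promoters of the same length in all (0.0304%), and the interferon letters by B2m and H2-T23 and by 1131 (3.44%). A match is a description of the reference sequence and not a measured site. Only these exact letters were searched, so a promoter without a match may still hold a related site.

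Of the other heavy chains of the complex, a fixed list of 15 genes, 6 to 9 were tested and 0 to 2 called in each comparison with C57BL/6J. In AKR/J against C57BL/6J 2 of 6 tested were higher on d12, 1 of 7 was higher and 1 lower on d15, and 2 of 8 were lower on d17, against 14.5% of all genes called higher on d12, 18.8% higher and 22.3% lower on d15 and 0.361% lower on d17. In Cav1-null against C57BL/6J 1 of 7 was higher on d15, against 26.8% of all genes. By edgeR and by DESeq2 0 of 6 were called there on d12 and 0 of 9 on d17, with 0 and 3 at an unadjusted p under 0.05 in edgeR. Without the 6 C57BL/6J libraries 11 were tested: 1 was higher and 1 lower in AKR/J on d12, 3 were lower on d15 and 3 on d17, and 0 were called in Cav1-null on any day. The d12 count in AKR/J was 0 without C57BL/6J d12 replicate 2, where 25 of 20490 genes were called in all. H2-Bl was higher in AKR/J than in C57BL/6J on d12 by 2.98 on the log2 scale (3.12 against 0.432 CPM, adjusted p = 0.0115 by edgeR), and H2-Q2 was lower in AKR/J than in C57BL/6J on d17 by a log2 difference of -6.05 (0.0331 against 2.49 CPM, adjusted p = 0.00534 by edgeR). In AKR/J H2-T24 fell by 3.54 from d12 to d15, from 13.6 to 1.19 CPM. These genes too have close relatives in the complex, and their counts carry the same doubt as those of the members.

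The genes around the pathway were counted in fixed lists. Of 13 genes of peptide supply and loading, 8 were lower and 2 higher in Cav1-null than in C57BL/6J on d15, against 31.8% and 26.8% of all genes, and 4 were lower and 1 higher in AKR/J than in C57BL/6J, against 22.3% and 18.8%, led by Thop1, a peptidase that destroys peptides (log2 difference -0.78). Psmb10, the remaining immunoproteasome subunit, was higher in AKR/J than in C57BL/6J on d12 by 1.44 on the log2 scale (18.5 against 7.50 CPM) and rose by 1.13 from d15 to d17 in AKR/J, while Psme2, of the proteasome activator, fell by 0.95 from d12 to d15 there. Over the same days Psmb10 went from 10.2 to 17.7 CPM in C57BL/6J and from 14.6 to 21.2 CPM in Cav1-null. Psme2 went from 44.1 to 35.1 CPM and from 55.2 to 47.6 CPM in these strains. A further list, counted here as constitutive, held the beta subunits Psmb5, Psmb6 and Psmb7 and the alpha subunits Psma1, Psma3 and Psma7. Of these 6 proteasome subunits, 6 were higher in Cav1-null and 5 in AKR/J than in C57BL/6J on d15, against 26.8% and 18.8% of all genes called higher. Psma3 was higher in AKR/J than in C57BL/6J on d12 by 2.10 and fell by 1.78 to d15 in AKR/J. Of the 14 transcriptional regulators of class I genes, 7 were lower and 2 higher in Cav1-null than in C57BL/6J on d15, against 31.8% and 26.8% of all genes, and Rela, a subunit of NF-kappa B, was lower in AKR/J than in C57BL/6J on d12 (log2 difference -0.95).

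Beyond the pathway, Mr1, a class I-like molecule that pairs with B2m and presents vitamin metabolites, was higher in AKR/J than in C57BL/6J on d15 (4.42 against 1.90 CPM, log2 difference 1.30), and the lipid-presenting Cd1d2 fell by 1.85 from d15 to d17 in AKR/J. Cd1d2 also fell by 1.67 over these days in C57BL/6J, where it was called, and by 1.18 in Cav1-null, where it was not. Class II genes were sparse, with 1 higher and 1 lower of 6 tested between AKR/J and C57BL/6J on d15: H2-DMa, which helps load class II molecules, by 0.50 and H2-Ab1, a class II chain, by -1.91, where 18.8% of all genes were called higher and 22.3% lower. Of the 17 non-immune genes of the H2 interval tested, 15 were lower in Cav1-null and 11 were lower in AKR/J than in C57BL/6J on d15, against 31.8% and 22.3% of all genes called lower. Among these, Bag6, a chaperone gene, was lower in AKR/J than in C57BL/6J (log2 difference -1.23, 220 against 541 CPM). Tapbp too was lower in both strains on d15, as most of these genes were, and an effect of the region was not tested. In AKR/J from d12 to d15 Ring1, a Polycomb gene of the interval, fell by 1.26 and Gnl1 rose by 0.81. Ring1 also went from 62.3 to 37.1 CPM in C57BL/6J and from 45.0 to 33.3 CPM in Cav1-null. Gnl1 went from 54.9 to 75.4 CPM and from 37.9 to 40.1 CPM in these strains. Among interferon-stimulated genes, Rsad2 was higher in AKR/J than in C57BL/6J on d12 by 5.22 (9.39 against 0.274 CPM), where 3 of 21 were called higher against 14.5% of all genes, Igtp fell by 3.34 from d12 to d15 in AKR/J (6.40 to 0.646 CPM), and Stat2 was lower in AKR/J on d15 (log2 difference -0.33).

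In the model of 21 libraries these differences of AKR/J from C57BL/6J kept their direction. On d12 they were 2.88 for H2-Bl, 1.41 for Psmb10, 1.73 for Psma3, -0.90 for Rela and 4.99 for Rsad2 and on d17 -6.55 for H2-Q2, all called by edgeR. On d15 Thop1 (-0.80) and Bag6 (-1.27) were called, while Mr1 (1.41, adjusted p = 0.237), H2-DMa (0.42, adjusted p = 0.484), H2-Ab1 (-2.26, adjusted p = 0.278) and Stat2 (-0.48, adjusted p = 0.164) were not called by edgeR. Against C57BL/6J on d15 the counts in Cav1-null were then 7 of 13 lower and 0 higher for peptide supply, 1 of 6 higher for the constitutive proteasome subunits, 1 of 14 lower for the regulators and 12 of 17 lower for the non-immune genes of the interval, where 13.2% of all genes were called lower and 3.42% higher. In AKR/J they were 3 of 13 lower, 0 of 6, 1 of 14 lower and 5 of 17 lower, where 9.44% of all genes were called lower and 1.59% higher. From d15 to d17 in C57BL/6J, 0 of 24 interferon-stimulated genes were then called, where 2.44% of all genes were called higher and 9.89% lower.

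By pattern over the 9 group means, the genes most like H2-D1 were Trim12a, with a root mean square difference of 0.33 on the centred log2 scale, Gm28455 (0.39), Gm21955 (0.39), Gm46339 (0.41) and Mcmdc2 (0.41), of 16430 genes compared. For H2-K1 the nearest was Lrrk1 (0.15) and for B2m it was Rab26os (0.13). Such likeness is a description over 9 groups that share their libraries.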

How the data were processed

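RNA of whole fetal brain was measured in 27 libraries, poly-A selected and copied with random primers. The authors' reads went through FastQC, cutadapt and fastp and were mapped with STAR to GRCm39; bedtools and edgeR are also in the submitters' processing notes. The deposited gene table holds raw counts for each Ensembl gene. A second deposited table holds read counts per splice junction from multi-sample mapping, from which junctions with multi-mapped reads, short overhangs or few reads had been removed. Versions, strand setting and the treatment of multi-mapped reads in gene counting are not given in the sources used here.

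Tests used edgeR 4.0.16 (R 4.3.3). After filterByExpr and TMM scaling, genes were tested by the quasi-likelihood test with Benjamini-Hochberg adjustment over all genes at 0.05, each strain or day comparison on its 6 libraries and each interaction on 12. SE was taken as |log2 fold change| divided by the root of F, and CPM are scaled by TMM except where given by library size alone. On simulated counts of AKR/J and C57BL/6J on d15 (19287 genes, 200 changed 4-fold), 95.5% of the changed genes were recovered and 7.73% of the calls were false. For d15 to d17 in Cav1-null (19819 genes) 99.5% were recovered and 8.29% of the calls were false. Both false shares were above the threshold of 0.05. For the interaction of AKR/J and C57BL/6J from d15 to d17 (20834 genes) 81.5% were recovered and 4.68% of the calls were false. Depth was 26363697 to 39759702 reads on genes, and precision for the rarest members is limited by counts under 10 reads. Alternatives were DESeq2 1.42.0, edgeR's likelihood ratio test, RLE size factors, library sizes alone, no filter, a replicate block, 1 model of all libraries and leaving out each library. A model without 6 C57BL/6J libraries was chosen after seeing the data.

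No 2 libraries held identical counts. Named genes were all 10 members, Nlrc5, and of each other list the gene with the largest called rise and fall in AKR/J against C57BL/6J and between days; likeness was ranked for H2-D1, H2-K1 and B2m among genes with a mean of at least 1 CPM on log2(CPM + 1). The members and lists were chosen with earlier results of these data known. Gene positions are from GENCODE annotation of the same build; promoters are from RefSeq.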

Additional observations from a re-analysis of the deposited data

How the results depend on the processing

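No member changed direction in a called comparison under any alternative. H2-D1 stayed lower in AKR/J on d15 and d17 against both other strains, and Tapbp lower in Cav1-null against C57BL/6J on d15, in all 14 alternatives of each. The counts of members called moved by over 1.5 times as follows, against 2, 3 and 1 for AKR/J against C57BL/6J on d12, d15 and d17, 0 and 5 for Cav1-null against C57BL/6J on d12 and d15, 2 and 1 for AKR/J against Cav1-null on d12 and d17, 4 and 1 for the early and late phase in AKR/J, 0 for both phases in C57BL/6J, 0 and 2 for those in Cav1-null, and 0 for the interactions. With DESeq2 the count was 2 in AKR/J against C57BL/6J on d17, 5 and 2 in AKR/J against Cav1-null on d12 and d17, 1 and 3 in Cav1-null against C57BL/6J on d12 and d15, 3 in the early phase of Cav1-null, and 1 in each of the 2 early interactions. With the likelihood ratio test it was 5 and 2 in AKR/J against C57BL/6J on d15 and d17, 2 in AKR/J against Cav1-null on d17 and 1 in the early phase of Cav1-null. With library sizes alone it was 1 in AKR/J against C57BL/6J on d12, 1 and 2 in AKR/J against Cav1-null on d12 and d17, 3 in Cav1-null against C57BL/6J on d15 and 0 in the early phase of AKR/J. Without the filter it was 2 in AKR/J against Cav1-null on d17, 3 in Cav1-null against C57BL/6J on d15, 2 in the early phase of Cav1-null and, for AKR/J, 0 in the late phase. Replicate numbers did not pair the libraries: in 0 of 15 comparisons did every same-numbered pair correlate over 0.1 (range -0.432 to 0.362). With the replicate block it was 3 in Cav1-null against C57BL/6J on d15 and, in AKR/J, 2 in the early phase and 0 in the late phase. In 1 model of all libraries it was 5 in AKR/J against C57BL/6J on d12, 4 in AKR/J against Cav1-null on d12, 1 in Cav1-null against C57BL/6J on d15, 0 in the late phases of Cav1-null and AKR/J, and 1 in the early interaction of AKR/J. In the model without 6 C57BL/6J libraries, chosen after seeing the data, it was 1 in AKR/J against C57BL/6J on d15, 4 in AKR/J against Cav1-null on d12, 1 in Cav1-null against C57BL/6J on d15, 1 in the late interaction of Cav1-null, 1 in the early phase of Cav1-null, 1 in the late phase of C57BL/6J, where Tapbp fell by 1.15 (adjusted p = 0.00716 by edgeR), and 0 in the late phases of Cav1-null and AKR/J. The cause of these moves was not tested. Leaving out 1 library at a time gave 0 to 2, 2 to 4 and 1 to 4 calls in AKR/J against C57BL/6J on d12, d15 and d17, 0, 3 to 4 and 0 to 1 in Cav1-null against C57BL/6J, 0 to 3, 1 to 2 and 1 to 2 in AKR/J against Cav1-null, 0 to 5 and 0 to 2 in the phases of AKR/J, 0 to 1 in both of C57BL/6J, 0 to 3 and 2 in those of Cav1-null, and 0 to 2 in the interactions. Tap2, Psmb8 and Psmb9 are limited by depth.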
